A study of Schima superba and Cryptocarya concinna with 24 samples.

Results

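Volatile terpene synthases of Schima superba are described here through 3 assembled leaf transcripts (unigenes), an isoprene synthase (Unigene5208), an (E)-beta-ocimene/myrcene synthase (Unigene22204) and a myrcene synthase (CL1474.Contig2). They were taken by identifier, and they are 3 of 57053 unigenes of this tree and of 117867 in both species of the study. The members were chosen by their own measured levels over leaf age and light, so those levels are given as a description and carry no test. Names are those of the best protein database hits in the deposited tables, and no enzyme activity or emission was measured.

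RNA from leaves of Schima superba and Cryptocarya concinna seedlings, both trees of subtropical evergreen forest, was sequenced after growth in full sunlight or under black shading net that passed 30% of it. In each species young and mature leaves were taken in each light, which gave 4 groups of 3 libraries per species and 24 libraries in all. The groups used here were young leaves in full light, young leaves in low light, mature leaves in full light and mature leaves in low light. The seedlings were collected in a forest, and a leaf's age was given only as young or mature. Nothing in the labels says whether replicates were different plants, so a p-value here speaks for the spread among these libraries alone, and that spread may be technical.

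Isoprene synthase releases the volatile isoprene from dimethylallyl diphosphate inside the chloroplast, while ocimene and myrcene synthases make monoterpenes from geranyl diphosphate. Both precursors come mainly from the plastid methylerythritol phosphate (MEP) pathway, whereas the cytosolic mevalonate pathway feeds sesquiterpenes and sterols. In other trees, such as poplars, isoprene emission is known to depend on light and temperature and to begin only as a leaf matures.

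Values are FPKM, mapped fragments divided by unigene length and library total, so levels may be compared between unigenes. Summed FPKM per S. superba library ran from 769593 to 867163, and by the steps between low values, relative depth was 0.953 to 1.03 with young full light replicate 1 set at 1. Absolute depth is unknown, so no counting interval is given, and a value of 0 means only that a unigene was listed at 0. Replicate pairs of a group differed with an SD of log2 ratios of 0.765 to 1.37, except young low light replicates 2 and 3, at 0.368. Leaf mesophyll markers (50 unigenes for Rubisco small subunit, Rubisco activase and chlorophyll a-b binding proteins, none at 0 in all libraries) summed to 8744 to 12360 FPKM in young full light, 21280 to 29410 in young low light, 27850 to 41600 in mature full light and 42150 to 56330 in mature low light. A list meant as markers of trichomes, epidermis and guard cells held 36 unigenes, none at 0 in all libraries. Of these, 21 were trichome birefringence-like and matched by that word alone, so the sum is no clear level of these cell types. It was 484 to 550, 406 to 411, 129 to 167 and 159 to 225 FPKM in the same order. Words for other organisms matched no unigene. In bulk leaves, fewer cells of a type and less RNA per cell cannot be told apart, and the part of either marker list in the results below was not tested.

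Each of the 3 synthases was near 0 in young leaves and had its highest mean in mature leaves in full light, with mature leaves in low light between. Unigene5208, the isoprene synthase, was listed at 0, 0.39 and 0 FPKM in young full light replicates 1, 2 and 3. In young low light it stood at 3.87, 5.74 and 3.48 FPKM, a mean of 4.36 ± 1.21 (SD, n = 3). All 3 young low light libraries were thus above all 3 young full light libraries.

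In mature full light Unigene5208 reached 305, 906 and 596 FPKM, a mean of 602 ± 301 (SD, n = 3). In mature low light it stood at 43.2, 192 and 580 FPKM, a mean of 272 ± 277 (SD, n = 3). The mature groups overlapped, because low light replicate 3 lay close to full light replicate 3 while low light replicate 1 was the lowest of the 6 mature libraries. Among all unigenes of its library, Unigene5208 ranked 80th to 264th in mature full light and 161st to 2758th in mature low light. The ratio of the mature means, full to low light, was 2.22, and that of mature to young means in low light was 62.3.

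Unigene22204, the (E)-beta-ocimene/myrcene synthase, was listed at 0, 0.22 and 0 FPKM in young full light and at 2.60, 0.95 and 0.32 FPKM in young low light. It reached 119, 80.2 and 53.5 FPKM in mature full light, a mean of 84.3 ± 33.0 (SD, n = 3), against 6.20, 8.70 and 14.5 FPKM in mature low light, a mean of 9.81 ± 4.27 (SD, n = 3). In the order mature full light, mature low light, young low light and young full light, no group overlapped with its neighbour. The ratio of means was 8.59 between the mature groups and 7.60 between mature and young leaves in low light.

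CL1474.Contig2, the myrcene synthase, was listed at 0 throughout young full light, while its young low light values were 0.71, 0.09 and 0 FPKM. In mature full light it stood at 103, 39.0 and 15.04 FPKM, a mean of 52.2 ± 45.3 (SD, n = 3), and in mature low light at 7.35, 0.97 and 4.11 FPKM, a mean of 4.14 ± 3.19 (SD, n = 3). Mature groups did not overlap and had a ratio of means of 12.6, while the lowest mature low light library lay only just above the highest young low light library. The young groups met at 0 FPKM.

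**Figure D1:**
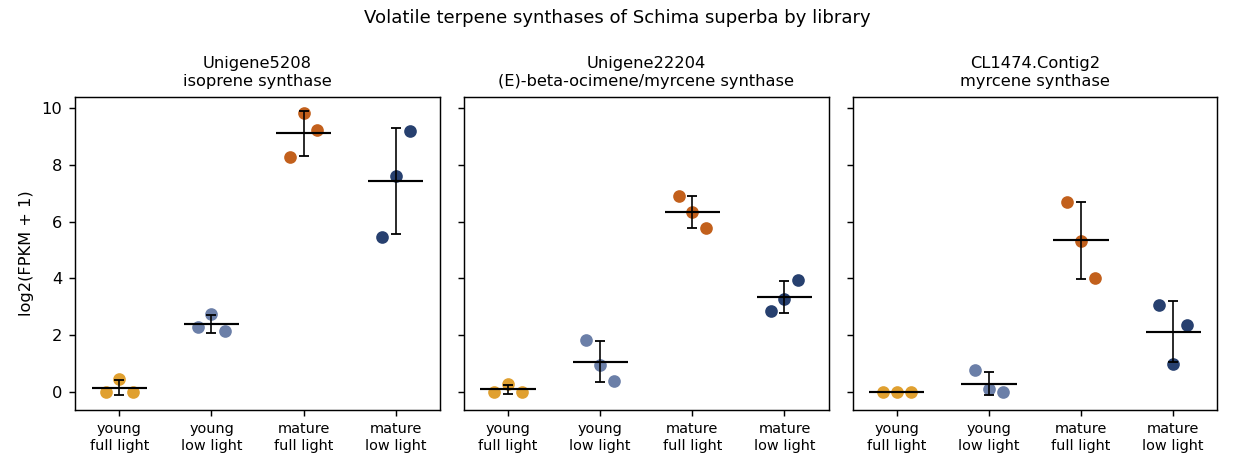
log2(FPKM + 1) of the 3 synthases in each S. superba library, by group, with points for libraries and bars for the mean and SD of 3 replicates. All points of mature leaves lie above all points of young leaves of the same light, and for Unigene5208 the highest mature low light library, at 580 FPKM, lies among those of mature full light.

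On the log2(FPKM + 1) scale, with standard errors from the limma fit over all S. superba unigenes tested, the light difference in mature leaves (full minus low) was 1.69 (SE 0.72) for Unigene5208, 2.98 (SE 0.41) for Unigene22204 and 3.21 (SE 0.64) for CL1474.Contig2. For 2 of the 3 synthases the mature groups did not overlap with full light higher, where 5.21% of all unigenes tested showed this, and nothing is read from that count because these values chose the members. Without mature low light replicate 1 the difference of Unigene5208 was 0.71, and without mature low light replicate 3 it was 2.57. Replicates in shaded mature leaves spread most for the isoprene synthase, whose highest FPKM was 13.4 times its lowest, against 2.34 times for Unigene22204 and 7.58 times for CL1474.Contig2.

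In young leaves the light difference went the other way, at -2.24 (SE 0.72) for Unigene5208, -0.98 (SE 0.41) for Unigene22204 and -0.30 (SE 0.64) for CL1474.Contig2. The first 2 had groups that did not overlap with low light higher, as did 13.1% of all unigenes tested. The light difference in young leaves minus that in mature leaves was -3.93 (SE 1.02), -3.95 (SE 0.58) and -3.51 (SE 0.90) in the same order. Levels in young leaves were close to 0, where the added 1 FPKM shrinks differences.

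The age difference (young minus mature) in full light was -8.94 (SE 0.72) for Unigene5208, -6.24 (SE 0.41) for Unigene22204 and -5.34 (SE 0.64) for CL1474.Contig2. In low light it was -5.01 (SE 0.72), -2.29 (SE 0.41) and -1.83 (SE 0.64). For all 3 the age groups did not overlap with mature leaves higher, as for 11.9% of unigenes tested in full light and 13.1% in low light. These fitted values against groups listed at or near 0 are no bound on the true fold. Rubisco activase (CL430.Contig2), a marker of mesophyll, was also higher in mature leaves, at 5845 to 8699 FPKM in full light and 9266 to 13100 in low light against 161 to 324 and 490 to 839 in young leaves, with every mature low light library above every mature full light one. A Rubisco small subunit (CL6064.Contig1), another marker of mesophyll, stood at 6628, 5105 and 16272 FPKM in mature full light and 3068, 7400 and 7121 FPKM in mature low light, against 47.7 to 317 FPKM in young leaves, so its mature groups overlapped. The 2 markers thus differed in their order by light in mature leaves, but CL6064.Contig1 was named as the described unigene most like Unigene5208. The 50 mesophyll markers summed to 27850 to 41600 FPKM in mature full light and 42150 to 56330 in mature low light. That was the order of CL430.Contig2. MIXTA-like 2 (CL5531.Contig2), of a family known in snapdragon for shaping epidermal cells, stood at 38.0 to 41.5 FPKM in young full light and 0.24 to 0.28 in mature full light.

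The description of Unigene5208 as isoprene synthase rests on a weak hit. Its best protein match was an isoprene synthase of Eucalyptus grandis with an E value of 9.63e-06, and its first KEGG match, the ortholog group of isoprene synthase, scored 52.0 bits. Unigene22204 and CL1474.Contig2 had stronger hits to grape synthases, with E values of 4.22e-87 and 1.92e-77. Their first KEGG match, at 324 and 292 bits, was the group of (-)-alpha-terpineol synthase, another monoterpene synthase, so the exact product is not settled by the tables.

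A further 4 S. superba unigenes had isoprene synthase as first KEGG match, and they were looked up after the values were seen. Unigene4549, without a protein description but with a KEGG score of 717 bits, was the strongest match of the 5. It stood at 1.28, 1.41 and 0.57 FPKM in young full light, and at 3.24, 6.63 and 4.14 FPKM in young low light. In mature full light it reached 1111, 3112 and 1818 FPKM, and in mature low light 64.0, 852 and 1417 FPKM. Its library order within each mature group was that of Unigene5208, and in mature full light replicate 2 it ranked 15th among all unigenes.

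Unigene477 and Unigene2249, with KEGG scores of 49.7 and 51.6 bits, ran between 20.4 and 311 FPKM in mature leaves and at most 3.63 FPKM in young leaves. Unigene13799, described as myrcene synthase, was at 0 except for 0.44 FPKM in 1 library. Unigene5208 made up 16.4% to 28.4% of the summed FPKM of Unigene5208, Unigene4549, Unigene477 and Unigene2249 in the 6 mature libraries. That sum was 1609, 4510 and 2996 FPKM in mature full light and 152, 1175 and 2392 FPKM in mature low light, so the mature groups overlapped for the sum as they did for Unigene5208. The ratio of Unigene5208 to Unigene4549 was 0.226 to 0.675 in mature leaves, and whether these unigenes are pieces of 1 transcript or separate genes was not tested.

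**Figure D2:**
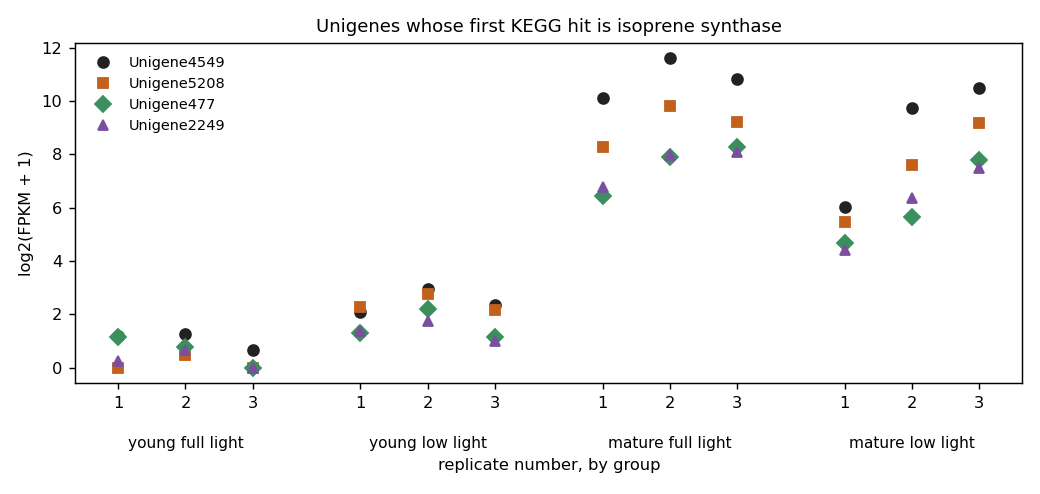
log2(FPKM + 1) of the 4 expressed unigenes whose first KEGG match is isoprene synthase, in each S. superba library. Unigene4549 is the highest in every mature library, and all 4 have their lowest mature value in low light replicate 1, where Unigene5208 stood at 43.2 FPKM.

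CL1474.Contig2 shares its cluster with CL1474.Contig1, an (E)-beta-ocimene/myrcene synthase with 830 bits. Reads of 1 contig may be assigned to the other, so the split between them is uncertain. CL1474.Contig1 stood at 0.16, 0.74 and 0 FPKM in young full light and at 7.63, 3.12 and 1.13 FPKM in young low light. In mature full light it reached 44.9, 204 and 396 FPKM, and in mature low light 6.92, 55.0 and 76.4 FPKM. The mature full light library with the most CL1474.Contig2, replicate 1, thus had the least CL1474.Contig1.

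CL1474.Contig2 made up 69.6%, 16.0% and 3.66% of the cluster's FPKM in mature full light replicates 1, 2 and 3, and 51.5%, 1.73% and 5.11% in mature low light. The sum of both contigs was 148, 243 and 411 FPKM in mature full light against 14.3, 55.9 and 80.5 FPKM in mature low light. Thus the mature groups did not overlap for CL1474.Contig2 or for the sum, while they did for CL1474.Contig1 alone. CL1474.Contig1 was no member and was tested, but with reads shared in the cluster its test is no separate support for CL1474.Contig2. It was lower in young than in mature leaves, with a log2 difference of -6.94 (SE 0.92, limma adjusted p = 9.34e-05) in full light and -2.94 (SE 0.92, limma adjusted p = 0.0255) in low light. The low light call was lost when replicate 2 or 3 of either low light group was left out (highest limma adjusted p = 0.0979). By light CL1474.Contig1 was not called, at -1.74 in young leaves (limma adjusted p = 0.296) and 2.26 in mature leaves (limma adjusted p = 0.307). Its light by age difference, -4.0 (limma adjusted p = 0.141), was not called either.

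**Figure D3:**
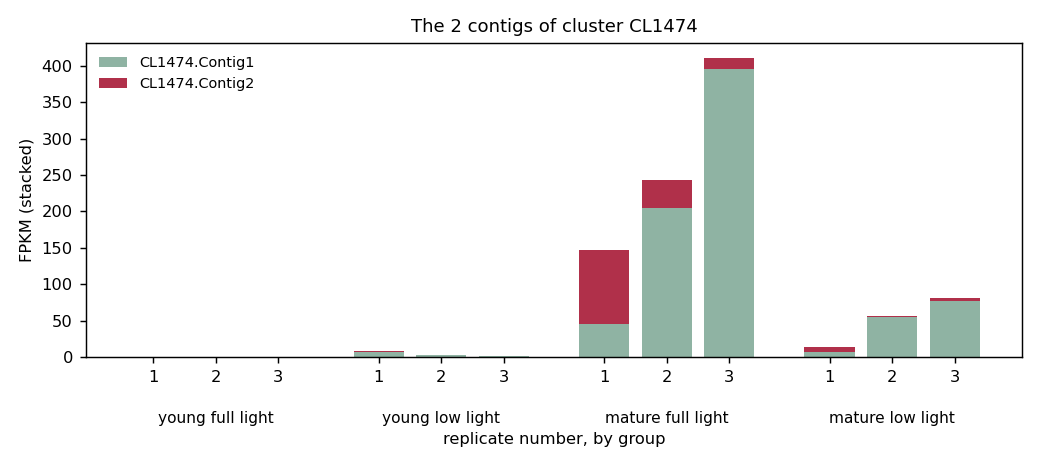
FPKM of CL1474.Contig1 and CL1474.Contig2, stacked, in each S. superba library. The stack reaches 148 to 411 FPKM in mature full light and 14.3 to 80.5 FPKM in mature low light, and CL1474.Contig2 is the larger contig only in replicate 1 of each mature group.

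The first KEGG match of Unigene22204 and CL1474.Contig2 was shared by 10 other unigenes, again looked up after the values were seen, and these did not all follow the members. Of the 12 unigenes with that match, 7 had their highest group mean in young leaves. Unigene4668, with 682 bits, stood at 66.9, 3.94 and 14.6 FPKM in young full light and at 0.69, 20.9 and 29.8 FPKM in young low light, but at 0.29 to 8.13 FPKM in mature leaves. Unigene25868, with 681 bits, reached 40.6 FPKM in young full light replicate 1 and was at 0 in 5 of the 6 mature libraries. Unigene15817 was listed only in mature leaves, at 56.1, 35.5 and 0 FPKM in full light and 4.62, 0 and 0 FPKM in low light.

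Descriptions named 14 terpene synthases beside the members, of which 10 passed the filter on low values. Tests here and below were limma fits over all 50970 unigenes tested, with a call at an adjusted p under 0.05. By leaf age in full light, 1 of the 10 was higher in young leaves and 2 were lower, against 36.3% and 9.67% of all unigenes tested. In low light 2 were higher and 3 lower, against 29.5% and 9.19%. The median log2 difference of the 10 was 0.65 in full light and 0.94 in low light, beside 0.55 and 0.39 over all unigenes tested.

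CL299.Contig1, a sesquiterpene synthase, had the highest group mean of them, and its mean in mature leaves was about the same in both lights. It stood at 40.7, 5.81 and 17.5 FPKM in young full light and 47.0, 73.7 and 52.0 FPKM in young low light. It reached 135, 341 and 899 FPKM in mature full light and 337, 450 and 544 FPKM in mature low light, so the mature groups overlapped. It was lower in young leaves by a log2 difference of -4.32 (SE 0.69, limma adjusted p = 0.000353) in full light and -2.92 (SE 0.69, limma adjusted p = 0.00588) in low light, while its light difference in mature leaves was -0.33 (SE 0.69, limma adjusted p = 0.908).

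CL2338.Contig2, a probable terpene synthase 9-like, was higher in young leaves in full light, with a log2 difference of 2.86 (limma adjusted p = 0.00206). CL5958.Contig2, a nerolidol synthase, was higher in young leaves in low light, with a difference of 2.83 (limma adjusted p = 0.00177). Its cluster mate CL5958.Contig1 and Unigene35648, both linalool/nerolidol synthases, reached at most 5.48 and 9.54 FPKM as a group mean and passed no test. Unigene394, named terpene synthase 2, was at 254 FPKM in mature low light replicate 1 and at 0.12 to 15.5 FPKM in the other 11 libraries. Its age call in low light (-3.63, limma adjusted p = 0.0265) was lost without any 1 of the young low light libraries. Unigene14537, a 5-epi-aristolochene synthase, was at 225 FPKM in young full light replicate 3 and 20.2 FPKM in young low light replicate 1, and passed no test.

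By light, 0 of the 10 were called in mature leaves, where 0.855% of all unigenes tested were called; 4 of the 10 had an unadjusted limma p under 0.05. In young leaves 1 of the 10 was called, lower in full light, against 2.32% of all. This was Unigene10961, a germacrene D synthase named after its value was seen, with a log2 difference of -1.97 (SE 0.43, limma adjusted p = 0.0277), and leaving out young full light replicate 1 or 2 ended the call, as did leaving out young low light replicate 2 or 3. For light by age 0 of the 10 were called against 1.61% of all, with 5 at an unadjusted limma p under 0.05. The share of all unigenes at that unadjusted threshold was not computed. Nothing is therefore read from these 5 or from the 4 in mature leaves.

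Enzymes that supply the precursors were listed as 49 unigenes, of which 47 were tested. By leaf age in full light 17 of them were higher in young leaves and 10 lower, and in low light 20 were higher and 9 lower. Of all unigenes tested 36.3% were higher and 9.67% lower in full light, while low light had 29.5% higher and 9.19% lower, so the share of the 47 that was higher in full light was near that of all. The median log2 difference was 0.45 and 0.50, beside 0.55 and 0.39 over all unigenes tested. Median-ratio rescaling of the libraries moved the median of all unigenes by -0.47 in full light and -0.34 in low light, and with it the split of the 47 became 11 higher and 14 lower in full light and 14 higher and 12 lower in low light. Directions by age below are given with that shift in mind. After rescaling, 50737 unigenes were tested. For full light, 11168 of them were called higher in young leaves and 8456 lower. The low light fit called 9680 higher and 7362 lower. Rescaled counts here and below belong beside these totals, because the percentages given are those of the FPKM as deposited.

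The MEP pathway, source of the members' substrates, had 16 unigenes tested, of which 3 were higher and 5 lower in young leaves in full light, and 3 higher and 6 lower in low light, beside the same shares of all unigenes (36.3% higher and 9.67% lower in full light, then 29.5% and 9.19%). Its median log2 difference was 0.00 in full light and -0.62 in low light, and 0.00 in low light without the low light libraries numbered 1. With median-ratio rescaling 2 were higher and 8 lower in each light, to be read beside the rescaled totals above. Unigene4124, a reductase of the last step (HDR), stood at 69.7, 70.9 and 80.4 FPKM in young full light and 104, 168 and 147 FPKM in young low light. It reached 328, 637 and 543 FPKM in mature full light and 534, 652 and 658 FPKM in mature low light. All mature libraries were thus above all young ones, with log2 differences of -2.70 (SE 0.27, limma adjusted p = 1.05e-05) and -2.15 (SE 0.27, limma adjusted p = 9.09e-05).

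CL7493.Contig1, the synthase of the step before it (HDS), had age differences of -2.36 (limma adjusted p = 6.77e-05) in full light and -1.69 (limma adjusted p = 0.00103) in low light. Unigene22056, the reductoisomerase (DXR) of the second step, had -1.69 (limma adjusted p = 5.16e-05) and -1.54 (limma adjusted p = 0.000168). Unigene4124, CL7493.Contig1 and Unigene22056 kept these age calls in all 22 settings run. CL4285.Contig1 (129 bits), a kinase of a middle step, was lower in young leaves in low light by -2.84 (limma adjusted p = 0.00413). Unigene7531 (131 bits), described as the same kinase, was higher in young leaves in full light by 1.29 (limma adjusted p = 0.000624). CL4285.Contig2, also this kinase and with 635 bits, was lower in young leaves by -1.36 (limma adjusted p = 0.00149) in full light and -1.39 (limma adjusted p = 0.00173) in low light. CL3976.Contig2, a deoxyxylulose phosphate synthase (DXS) of the first step, stood at 47.3 FPKM in mature low light replicate 1 and at 1.12 to 5.49 FPKM elsewhere.

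The mevalonate pathway, which feeds the cytosol, had 18 unigenes tested. Of these 10 were higher and 0 lower in young leaves in full light, and 12 were higher and 0 lower in low light, where 36.3% and 29.5% of all unigenes tested were higher. The medians were 1.40 and 1.56, beside 0.55 and 0.39 over all. With median-ratio rescaling the counts were 7 higher and 1 lower, and 9 higher and 0 lower. CL1327.Contig2 and CL1135.Contig4, both HMG-CoA reductases and so of the pathway's main control step, had log2 differences of 5.18 (limma adjusted p = 6.46e-07) and 4.64 (limma adjusted p = 0.000171) in full light. CL1327.Contig2 had a mean of 58.9 ± 17.8 FPKM (SD, n = 3) in young full light and 0.67 ± 0.62 in mature full light. Thus its age direction was opposite to that of the 3 synthases and of Unigene4124.

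Prenyl diphosphate synthases, which join the 5-carbon units, had 13 unigenes tested, with 4 higher and 5 lower in young leaves in full light and 5 higher and 3 lower in low light. Of all unigenes tested 36.3% and 29.5% were higher, and 9.67% and 9.19% lower. With median-ratio rescaling these were 2 higher and 5 lower, and 3 higher and 4 lower. Unigene33206, a geranylgeranyl diphosphate synthase, was lower in young leaves in full light by -2.45 (SE 0.26, limma adjusted p = 1.70e-05). CL5778.Contig2, a solanesyl diphosphate synthase of plastoquinone side chains, was lower in young leaves by -2.43 (limma adjusted p = 5.57e-06) in full light. Unigene9082, described as a geranyl diphosphate synthase small subunit and named after its value was seen, went the other way. It was higher in young leaves in full light by 1.19 (limma adjusted p = 0.034), a call kept in 14 of 22 settings. In low light Unigene9082 was not called (0.69, limma adjusted p = 0.209). CL2023.Contig3, a farnesyl diphosphate synthase of the sesquiterpene branch, was higher in young leaves in low light by 3.06 (limma adjusted p = 6.20e-05), and Unigene9423, another one, was higher in full light by 2.26 (limma adjusted p = 6.23e-06).

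**Figure D4:**
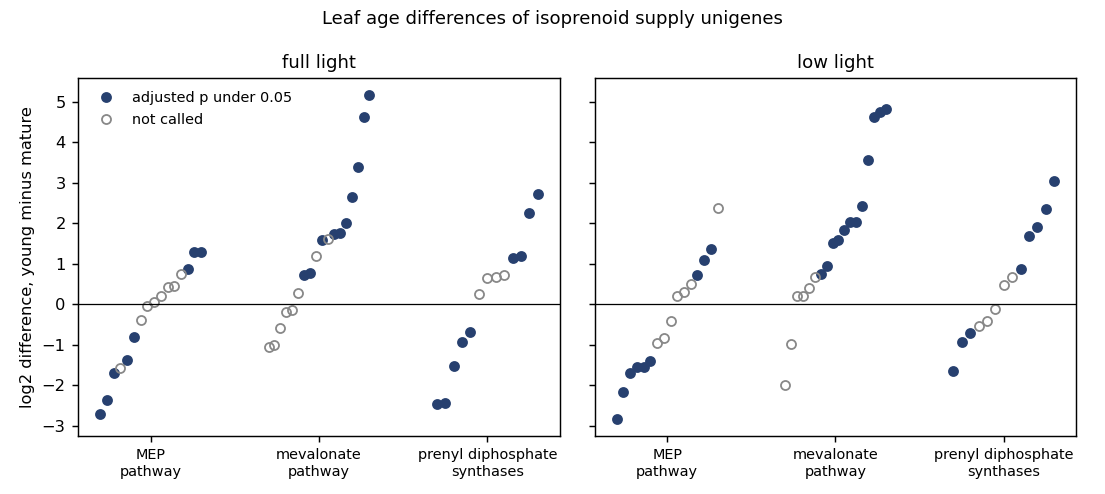
log2 difference, young minus mature, of the precursor supply unigenes tested, by pathway and sorted within each, with filled points for an adjusted p under 0.05. The called mevalonate unigenes, 10 in full light and 12 in low light, all lie above 0 with FPKM as deposited, while MEP and prenyl diphosphate synthase unigenes lie on both sides.

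By light in young leaves 1 of the 47 was higher in full light and 4 were lower, against 3.02% and 2.32% of all. CL2721.Contig1, a DXS of the first MEP step, was lower in full light by -1.66 (SE 0.27, limma adjusted p = 0.00879), at 15.8 ± 1.67 against 52.0 ± 4.80 FPKM (SD, n = 3). The count fell to 0 without young low light replicate 2 and to 3 without replicate 3 of that group, also to 3 without young full light replicate 1, and the call of CL2721.Contig1 was lost without young low light replicate 2 (limma adjusted p = 0.0517). In mature leaves, where Unigene22204 and CL1474.Contig2 stood higher in full light, 0 of the 47 were called by limma, against 0.855% of all. Their median was -0.25 beside -0.09 over all. At an unadjusted limma p under 0.05 there were 9, and the share of all unigenes at that threshold was not computed. For light by age 2 were higher and 2 lower, against 1.11% and 0.506% of all. None of these calls was left without young full light replicate 1, young full light replicate 2, young low light replicate 2 or mature full light replicate 3. Without young low light replicate 1 only the call of CL2023.Contig3, a farnesyl diphosphate synthase, was lost. All 4 were left without mature low light replicate 2, and 1 or 2 were left without any other library.

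Isopentenyl diphosphate isomerase, which makes the substrate of isoprene synthase from its isomer, had no unigene by description. By first KEGG match, looked up afterwards, CL2915.Contig1 (462 bits) stood at 63.6, 57.2 and 58.5 FPKM in young full light and 73.6, 82.5 and 88.2 FPKM in young low light. It stood at 95.5, 158 and 127 FPKM in mature full light and 128, 117 and 121 FPKM in mature low light, so the mature groups overlapped and both lay above the young ones. Its cluster mates did not follow it: CL2915.Contig3 (466 bits, the strongest match) had means of 27.2 and 30.5 FPKM in young full and low light and 27.3 and 22.2 FPKM in mature full and low light, and CL2915.Contig2 (402 bits) had 43.8, 49.0, 42.4 and 41.1 FPKM. For both, the age groups overlapped in full light and young leaves were higher in low light. The split of reads within the cluster is uncertain, and the other 3 unigenes with this match scored only 59.7 to 60.5 bits.

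The unigenes most like each synthase were ranked by the root mean square difference of log2(FPKM + 1), each centred on its own mean, over the 12 libraries, among described unigenes with a mean of at least 10 FPKM in a group. For Unigene5208 these were a Rubisco small subunit (CL6064.Contig1, 1.05), a cytochrome P450 93A3-like (CL135.Contig2, 1.22), CL1474.Contig1 (1.24), a catalase (CL2021.Contig2, 1.26) and a UDP-glycosyltransferase 74F2-like (CL4438.Contig2, 1.30). Unigene2249, Unigene4549 and Unigene477, which had no usable description and were outside that ranking, lay closer, at 0.68, 0.72 and 0.90. Between the members, Unigene22204 and CL1474.Contig2 differed by 0.76, and Unigene5208 differed from them by 1.70 and 2.32.

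For Unigene22204 the nearest were 2 DnaJ co-chaperones (Unigene11210, 0.65, and CL1225.Contig1, 0.68), a heat shock protein 70 (CL1396.Contig3, 0.69), CL1474.Contig2 (0.76) and a multiprotein-bridging factor 1c-like (Unigene1563, 0.85). CL1225.Contig1 stood at 139, 153 and 162 FPKM in mature full light and 38.8, 26.1 and 93.7 FPKM in mature low light. All 4 of these chaperone and co-activator unigenes were higher in every mature full light library than in any mature low light library, as Unigene22204 was. Of all unigenes tested 5.21% had that order. The 4 were picked for likeness to Unigene22204 over these same libraries, so nothing is read from the shared order. The list for CL1474.Contig2 held Unigene22204 (0.76), heat shock transcription factor A2 (Unigene15877, 0.81), a zinc finger protein (Unigene39121, 0.86), a DnaJ co-chaperone (CL6346.Contig2, 0.86) and an NRT1/PTR family 7.1-like transporter (Unigene15667, 0.86). The 12 libraries fall mainly into young and mature, so any unigene near 0 in young leaves is favoured by this measure, which carries no test.

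**Figure D5:**
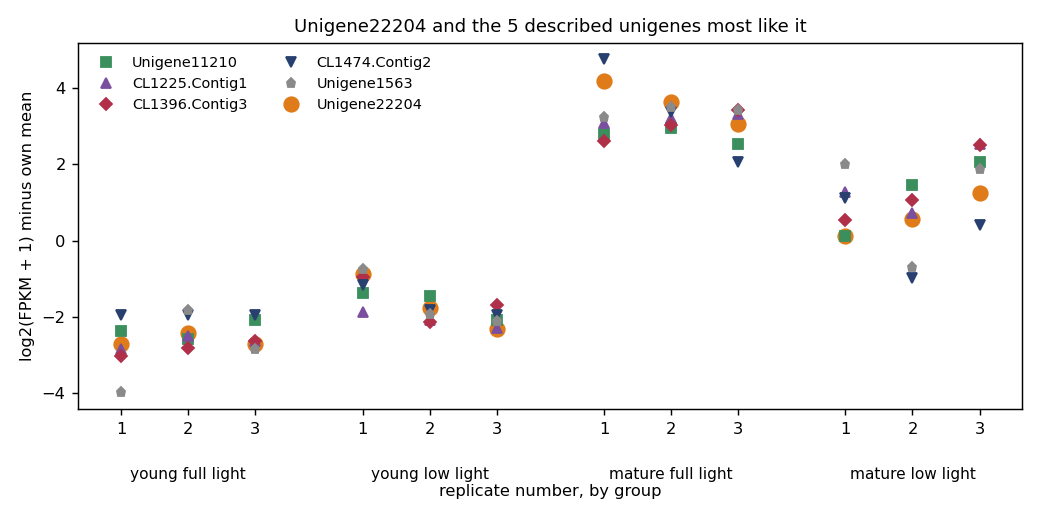
log2(FPKM + 1) minus its own mean over the 12 S. superba libraries, for Unigene22204 and the 5 described unigenes nearest to it, by group and replicate. All 6 are highest in mature full light and lie below their mean in every young library, and the root mean square difference from Unigene22204 is 0.65 to 0.85.

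In C. concinna, whose table was normalized separately and was not tested against S. superba, 0 unigenes were described as isoprene synthase and 5 as myrcene synthase. CL3253.Contig2, the most abundant, stood at 20.9, 27.4 and 19.5 FPKM in young full light and 12.5, 4.52 and 11.8 FPKM in young low light. In mature leaves it reached 1604, 940 and 725 FPKM in full light and 1535, 1252 and 1510 FPKM in low light, so the mature groups overlapped. In S. superba those of CL1474.Contig2 did not overlap, while those of its cluster mate CL1474.Contig1 did. CL3253.Contig1 of the same cluster was at 402 to 683 FPKM in mature full light and 798 to 1162 FPKM in mature low light, with low light higher. CL5485.Contig1 stood at 38.7, 1.72 and 2.78 FPKM in mature full light and 74.2, 74.9 and 84.5 FPKM in mature low light, and its cluster mate CL5485.Contig2 at 10.4, 1.38 and 2.95 against 21.0, 28.3 and 34.8 FPKM. For CL3253.Contig1 and both CL5485 contigs every mature low light library was above every mature full light one. The share of all C. concinna unigenes with that order was not computed, and the CL5485 contigs share a cluster. No difference between the species is read from that order or from the overlaps. CL6049.Contig2 was at most at 2.65 FPKM in mature leaves. With isoprene synthase as first KEGG match there were 2, of which Unigene5340, described as a santalene synthase, stood at 449 to 831 FPKM in mature full light and 784 to 1059 FPKM in mature low light.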

How the data were processed

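Leaf RNA-seq of Schima superba (12 libraries, 3 in each of 4 groups) was used, with Cryptocarya concinna for levels only. The authors deposited FPKM per unigene and library, made with RSEM 1.2.12 per the submitters' processing notes. No assembler or read filter is named in the sources used here. A unigene was tested if 3 or more of the 12 S. superba libraries had an FPKM of 1 or above (50970 were). The test, two-sided, was limma's moderated one (limma 3.58.1, R 4.3.3) on log2(FPKM + 1), fitting 4 group means with a mean-variance trend, and p was adjusted by Benjamini-Hochberg over all unigenes tested. Light is full minus low and age is young minus mature, and 5 comparisons were made. The fit was tested on simulated data. The members and lists were chosen with earlier results of these data known. Lists were word patterns on the deposited descriptions, so they take in look-alikes. Named were list unigenes with a mean of at least 5 FPKM in a group (other terpene synthases, up to 12), the called unigenes of largest change and the most abundant one of each supply pathway, of which the text uses some, and the 5 unigenes most like each member. Python 3.11.15, pandas 2.3.3, numpy 2.4.6 and matplotlib 3.10.9 made tables and figures. Alternatives were another pseudocount, 2 other filters, 2 rescalings, a replicate block, no trend, only the 2 groups compared, contigs summed per cluster and each library left out.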

Additional observations from a re-analysis of the deposited data

Results flagged for a closer look

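Unigene22204, the (E)-beta-ocimene/myrcene synthase, stood higher in every young low light library than in any young full light one, and the reverse in mature leaves, so its light difference in young minus mature leaves was -3.95 on the log2(FPKM + 1) scale. That difference was not tested.

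The light difference changed with leaf age by limma's interaction term, in 4 precursor supply unigenes. CL3325.Contig3, a DXS, had 2.84 (limma adjusted p = 0.0313), CL4970.Contig1, a diphosphomevalonate decarboxylase, 1.54 (limma adjusted p = 0.0390), CL2023.Contig3, a farnesyl diphosphate synthase, -2.32 (limma adjusted p = 0.0474), and Unigene33206, a geranylgeranyl diphosphate synthase, -2.03 (limma adjusted p = 0.0295). The calls held in 9 of 20, 8 of 21, 4 of 21 and 14 of 21 settings. With contigs summed per cluster the first 3 calls were lost (limma adjusted p = 0.721, 0.332 and 0.424), so they hold for the single contigs only. CL4970.Contig2, the cluster mate of CL4970.Contig1 with the same description, had -4.16 (limma adjusted p = 0.0716), the opposite sign. Unigene33206 stood at 106 FPKM in mature full light and 47.0 FPKM in mature low light, against 18.4 and 35.1 FPKM in young leaves (means of 3). The means of the 3 volatile terpene synthases had the same order by light, but only Unigene22204 had it without overlap in both leaf ages. In low light the age groups of Unigene33206 overlapped, unlike those of the 3 synthases. Unigene33206 was named for its call in these libraries, so nothing is read from the shared order.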

How the results depend on the processing

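The log2 differences of the 3 synthases kept their direction in the alternatives run, with 15 values that moved by more than 1 SD of the replicates and 312 that did not. With a pseudocount of 0.1 those of Unigene5208 were -4.68 (light, young), -11.66 (age, full light) and -6.38 (light by age). In the same setting Unigene22204 had -2.85, -9.09 and -5.95 and, for age in low light, -3.14, and CL1474.Contig2 had -1.31, -8.62, -4.92 and -3.70. With contigs summed per cluster CL1474.Contig2 had -1.79 (light, young), -7.61 (age, full light) and -3.24 (age, low light). Without the low light libraries numbered 1, an alternative chosen after seeing the data, Unigene22204 had -3.31 for light by age. With each library left out in turn, Unigene5208 ran from -2.40 to -2.07 (light, young), 0.71 to 2.57 (light, mature), -9.37 to -8.58 (age, full), -5.99 to -4.13 (age, low) and -4.81 to -2.95 (light by age). Unigene22204 ran from -1.31 to -0.59, 2.69 to 3.28, -6.53 to -5.96, -2.68 to -1.95 and -4.29 to -3.57, and CL1474.Contig2 from -0.45 to -0.06, 2.53 to 3.88, -6.01 to -4.66, -2.41 to -1.37 and -4.18 to -2.83.

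Counts of other terpene synthases called were 0 instead of 1 for light in young leaves with a pseudocount of 0.1, with a mean FPKM of at least 5 and when both low light libraries numbered 1 were left out. For age in low light they were 3 instead of 5 with a mean FPKM of at least 5, with only the 2 groups compared and without those libraries, and 1 instead of 0 for light by age with contigs summed. With each library left out they were 0 to 1 (light, young), 0 to 1 (light, mature), 3 to 4 (age, full), 2 to 6 (age, low) and 0 to 0 (light by age). The age count in low light was 2 without young low light replicate 2 and 3 without young low light replicate 3 or mature low light replicate 2.

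Counts of supply unigenes for light in young leaves were 9 instead of 5 with only the 2 groups compared and 3 with contigs summed. In mature leaves they were 1 instead of 0 with a pseudocount of 0.1 or contigs summed and 3 with a mean FPKM of at least 5 or median-ratio rescaling. For light by age the replicate block gave 0 instead of 4, and 2 were called with a pseudocount of 0.1, without trend and without the low light libraries numbered 1, and 1 with contigs summed. With each library left out they were 0 to 7 (light, young), 0 to 0 (light, mature), 21 to 28 (age, full), 21 to 30 (age, low) and 0 to 4 (light by age). The cause of these moves was not tested. The replicate block moved no other count past 1.5 times. Deviations of same-numbered libraries correlated at -0.027 to 0.324 over 18 pairs, of which 3 were over 0.1, and 0 of 12 libraries correlated best with their own number in every other group, so the numbers were not taken to pair samples.

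Absolute depth is unknown, and values near 0, such as those of the 3 synthases in young leaves, carry no counting error here.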
